A study of Mus musculus with 4 samples.

Results

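The 34 genes described here carry fatty acids into the cell, activate them, move them into mitochondria and oxidize them, or hold and release them from lipid droplets. They were chosen by name from the 24454 genes of the count table, and all 34 of them were among the 14266 genes tested. Counts came from RNA-seq of mouse hearts at postnatal day 7 (P7), with 2 Ctrl libraries (WH7 and WH8) and 2 libraries with cardiac overexpression of miR-128 (miR-128OE, WH9 and WH10). Both groups carry the miR-128TetRE allele, a *Rosa26* knock-in of miR-128 behind a tetracycline-responsive promoter, on a C57BL/6 background. The miR-128OE mice also carry α-MHC-tTA, a transactivator driven by the α-myosin heavy chain promoter of cardiomyocytes and silenced by doxycycline, and the Ctrl mice do not. tTA itself therefore coincides with miR-128 overexpression, and the effects of the 2 cannot be told apart. The doxycycline schedule of these hearts is not given in the sources used here, and the labels do not say whether the libraries of a group came from separate mice, so p-values measure the spread between libraries. The comparison asks which steps of fatty acid use differ in transcript level when miR-128 is raised in the neonatal heart.

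Around birth the heart turns from glucose and lactate to fatty acids as its main fuel. Fatty acids are freed from lipoproteins by lipoprotein lipase, cross the membrane, bind to fatty acid binding proteins and are joined to coenzyme A. The carnitine shuttle takes the long chains into mitochondria, and its first enzyme, CPT1, is inhibited by malonyl-CoA. Inside, each round of beta-oxidation is a dehydrogenation, a hydration, a second dehydrogenation and a thiolysis, and electrons of the first step leave through the electron transfer flavoprotein. Nuclear receptors of the PPAR and estrogen-related families, with the coactivator PGC-1α, are known activators of many of these genes.

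Library totals ranged from 8096870 counts (WH8) to 14359838 counts (WH10), and values below are normalised counts, that is, counts scaled by TMM factors to the mean effective library size. Libraries of a group resembled each other more than those of the other group, with a chi-square per degree of freedom of 9.91 for the Ctrl pair, 4.82 for the miR-128OE pair and 34.2 to 43.7 between groups. Transcripts of cardiomyocytes were abundant in every library, as the tissue label implies. *Xist* counts were 14543 and 11339 in Ctrl against 94 and 132 in miR-128OE hearts, while those of *Ddx3y* on the Y chromosome were 13 and 7 against 1442 and 1768, so the sex of the mice coincides with the condition and the 2 cannot be told apart. The 6 atrial markers took 0.626% of counts in WH7 and 0.0764% to 0.276% in the other 3 libraries. The counts do not measure mature miR-128, and of its loci, *Mir128-1* was at 0 throughout and *Mir128-2* at 0, 0, 2 and 10 counts in WH7 to WH10.

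The mature miR-128-3p of both loci has the same sequence in RefSeq (GRCm38.p6; *Mir128-1* at chr1:128202404-128202424 and *Mir128-2* at chr9:112118644-112118664), shown here with its seed, bases 2 to 8, in capitals.
miR-128-3p: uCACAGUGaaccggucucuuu
A DNA match to this seed (CACTGTG, called 7mer-m8, or ACTGTGA, called 7mer-A1) was present in the annotated 3′UTR of 7 of the 34 genes, or 20.6%, and of 31.0% of the 13496 tested genes with a 3′UTR in GENCODE M21. Median 3′UTR length was 578 bases for the 34 genes and 1199 bases for all of them. The 7 genes were *Lpl*, *Acsl1*, *Acadm*, *Acad9*, *Echs1*, *Hadha* and *Mlycd*. Among them 2 were called higher, 1 lower and 4 neither, so the sites below stand beside changes in both directions. They are shown for the only gene with a match that was lower (*Acad9*), for the 2 that were higher (*Acadm* and *Echs1*) and for the gene with the most matches (*Hadha*, 1 of its 5 matches), on the transcribed strand with the match in capitals. Some *Hadha* matches lie past the RefSeq end of the gene (chr5:30119423), within its longest GENCODE 3′UTR, but the one shown does not.
*Acad9* (7mer-m8, chr3:36091656-36091662, plus strand): tcttttcaactCACTGTGtccccttagtg
*Echs1* (7mer-m8, chr7:140105827-140105833, minus strand): ggctaaggtttCACTGTGtatccctggct
*Acadm* (7mer-A1, chr3:153922550-153922556, minus strand): ggacacgtcagACTGTGAcatagcagcat
*Hadha* (7mer-m8, chr5:30119594-30119600, minus strand): agggggagcccCACTGTGcttcttttgca

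In miR-128OE hearts 19 of the 34 genes were higher than in Ctrl, 5 were lower and 10 did not pass the threshold (edgeR quasi-likelihood test, Benjamini-Hochberg adjusted p under 0.05 over all genes tested). Of all genes tested, 16.5% were called higher and 15.0% lower. The enzymes of mitochondrial beta-oxidation made up most of the higher genes, whereas both forms of CPT1, the fatty acid transporter *Slc27a1*, the thioesterase *Acot1* and the dehydrogenase *Acad9* were lower. The median log2 fold change of the 34 genes was 0.42, with a range of −0.87 to 1.17, against −0.01 over all genes tested. The libraries of the groups did not overlap for 29 of the 34 genes, where 68.1% of all genes tested had no overlap.

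**Figure D1:**
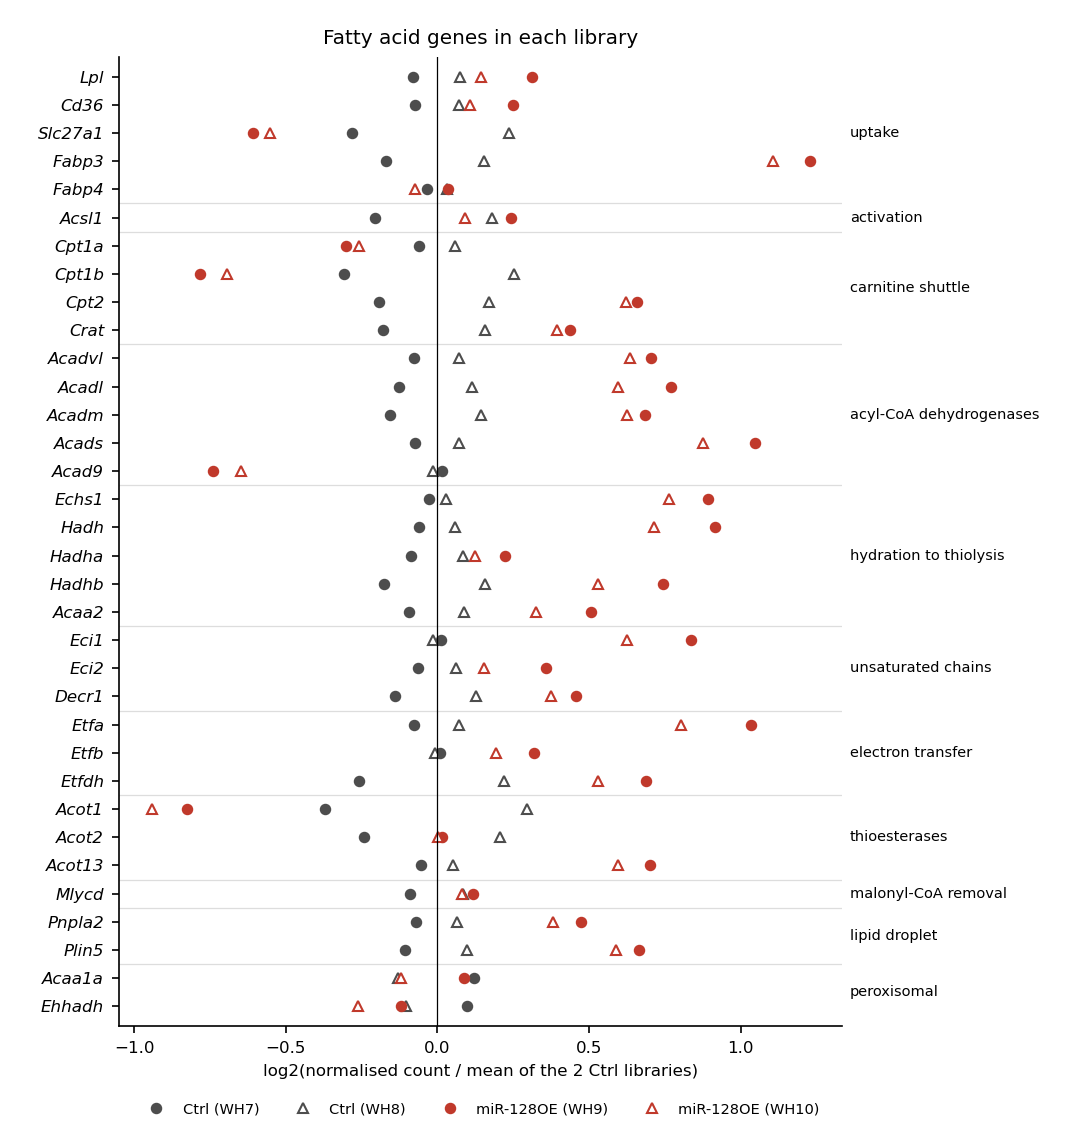
Each of the 34 genes is a row, ordered by step, and each library is a point at the log2 ratio of its normalised count to the mean of the 2 Ctrl libraries (Ctrl in dark grey, miR-128OE in red). Fabp3 lies farthest to the right and Acot1 farthest to the left, and WH8 lies to the right of WH7 for 29 of the 34 genes.

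Bulk RNA cannot separate the number of cells of a type from the RNA per cell. The share of counts on cardiomyocyte markers was read beside these counts, and it does not measure the share of cardiomyocytes. The 12 cardiomyocyte markers, of which 7 were called higher and 2 (*Ttn* and *Ryr2*) lower, made up 6.15% and 6.55% of the Ctrl counts and 7.89% and 7.80% of the miR-128OE counts. Their log2 fold changes ran from −0.40 (*Ryr2*) to 1.34 (*Actc1*), so the markers did not move together. When the libraries were scaled to the summed counts of these markers, an alternative chosen after the data were seen, 9 of the 34 genes were higher, 10 were lower and their median log2 fold change was 0.02. The 9 were *Fabp3*, *Acadvl*, *Acadl*, *Acads*, *Echs1*, *Hadh*, *Eci1*, *Etfa* and *Acot13*. Called higher by step were then 3 of the 5 acyl-CoA dehydrogenases, 2 of the 5 enzymes of hydration to thiolysis, 1 of 3 each for unsaturated chains and electron transfer, and neither the carnitine shuttle nor the lipid droplet genes. The 5 genes lower under TMM were lower here too. This scaling moved the median of all genes to −0.42, with 506 genes higher and 6893 lower, against 2347 and 2143 under TMM. Scaled to total counts alone, 18 and 5 of the 34 genes were called, with 1612 genes higher and 2945 lower in all and a median of all genes of −0.11.

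**Figure D2:**
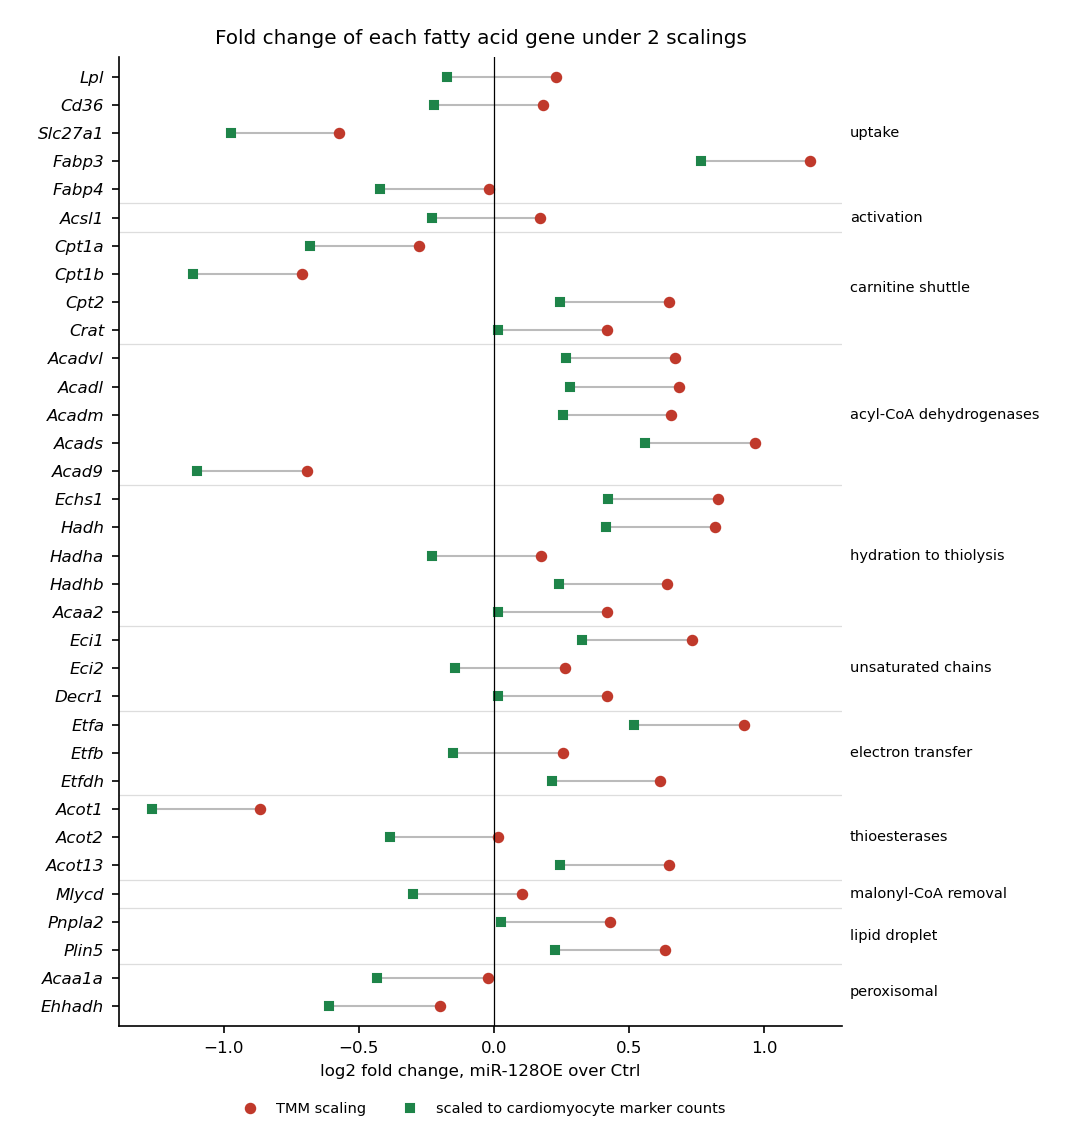
The log2 fold change of each gene, miR-128OE over Ctrl, is drawn under TMM scaling (red circles) and after scaling to the counts of 12 cardiomyocyte markers (green squares). The second scaling moves every gene to the left, and Fabp3, Acads, Etfa, Echs1 and Hadh keep the highest values under both.

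The counts depended on single libraries, for the 34 genes and over all genes tested. Without WH9, 12 of the 34 genes were higher and 2 lower, where the shares over all genes tested fell to 6.13% higher and 4.56% lower. Without WH10, 17 were higher and 1 lower, against 8.65% and 6.97% of all genes. Without WH8, 25 were higher and 3 lower, against 17.0% and 14.2% of all genes. Without WH7, the library with the high atrial share, 19 were higher and 5 lower, against 18.2% and 16.4% of all genes, but the median log2 fold change of the 34 genes was 0.28 in place of 0.42. It was 0.37 to 0.51 without 1 of the other libraries. *Fabp3*, *Acads*, *Echs1*, *Hadh*, *Eci1*, *Etfa*, *Acadvl*, *Acadl* and *Acot13* among the higher genes and *Acad9* among the lower ones kept their direction and their call under each of the 16 alternatives run.

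Uptake genes did not move together, with 1 of 5 higher and 1 lower. *Fabp3*, the heart-type fatty acid binding protein (Entrez Gene 14077, chr4:130308738-130315463), was the gene with the largest rise among the 34. Its normalised counts were 20453 and 25593 in Ctrl against 53883 and 49567 in miR-128OE hearts. Both miR-128OE libraries lay far above both Ctrl libraries, with a log2 fold change of 1.17 ± 0.12 (SE; adjusted p = 0.000203). Of its 50-base stretches 37.3% recur in other genes, most of them in the pseudogene *Fabp3-ps1*, and 19.6% of its exon bases lie opposite the exons of *Zcchc17* and *Gm10570*, so part of its count is uncertain. *Zcchc17* itself was lower, at −0.66 ± 0.09 (SE).

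*Slc27a1* (FATP1, Entrez Gene 26457, chr8:71568728-71587307), a long-chain fatty acid transporter with acyl-CoA synthetase activity, fell. It had normalised counts of 1381 and 1979 in Ctrl against 1102 and 1146 in miR-128OE hearts. The groups did not overlap, but the Ctrl libraries were far apart, and the log2 fold change was −0.57 ± 0.14 (SE; adjusted p = 0.0144). The call was lost without either miR-128OE library and when tested against a fold of 1.2 (adjusted p = 0.0611), and without WH8 the log2 fold change was −0.29.

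The other uptake genes did not pass the threshold. *Lpl*, the lipoprotein lipase that frees fatty acids in the capillary, had normalised counts of 17017 and 18943 in Ctrl against 22330 and 19883 in miR-128OE hearts. *Cd36*, the main fatty acid translocase of the heart, had 8593 and 9491 against 10756 and 9750. For both genes the groups did not overlap, with log2 fold changes of 0.23 ± 0.10 for *Lpl* (SE; adjusted p = 0.106) and 0.18 ± 0.09 for *Cd36* (SE; adjusted p = 0.173). *Fabp4*, a binding protein of endothelial cells and adipocytes, had 18115 and 18960 against 18991 and 17627, and its groups overlapped (log2 fold change −0.02 ± 0.09, SE).

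Markers of those 2 cell types were read beside *Fabp4*. The 12 endothelial markers made up 0.269% and 0.263% of the Ctrl counts and 0.261% and 0.257% of the miR-128OE counts, with 3 called higher and 2 lower. The 9 adipocyte markers took 0.00370% and 0.00368% in Ctrl and 0.00707% and 0.00556% in miR-128OE libraries, and 3 of the 5 tested were higher. The 3 were *Adipoq* (counts of 16 and 13 in Ctrl against 34 and 45 in miR-128OE hearts) and the brown fat genes *Ucp1* (56 and 3 against 253 and 189) and *Cidea* (336 and 250 against 536 and 485), which held most of the adipocyte counts. *Plin1* (18 and 11 against 25 and 40) and *Cidec* (13 and 10 against 16 and 16) did not pass the threshold. Of the 5 tested, DESeq2 called 1 higher, total counts 2 and the marker scaling 1, against 12%, 11.3% and 3.55% of all genes tested. *Cfd*, *Retn*, *Adrb3* and *Lep* were too low to be tested, at 0 to 11 counts a library, and *Lep* was at 0 and 0 against 1 and 6. Their part in the *Fabp4* counts was not tested.

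*Acsl1*, the main long-chain acyl-CoA synthetase of the heart, catalyzes activation. It had normalised counts of 2639 and 3446 in Ctrl against 3604 and 3243 in miR-128OE hearts. The groups overlapped, and the log2 fold change was 0.17 ± 0.12 (SE; adjusted p = 0.308).

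The carnitine shuttle was split, with 2 of its 4 genes lower (both forms of its first enzyme) and 2 higher. *Cpt1a* (Entrez Gene 12894, chr19:3322326-3385735), the CPT1 form of liver and of the fetal and newborn heart, had normalised counts of 1256 and 1367 in Ctrl against 1065 and 1097 in miR-128OE hearts. *Cpt1b* (Entrez Gene 12895, chr15:89416405-89425862), the form of adult muscle, had 97.8 and 144 against 70.3 and 74.9. Both forms were lower in both miR-128OE libraries than in either Ctrl library, with log2 fold changes of −0.28 ± 0.08 for *Cpt1a* (SE; adjusted p = 0.0307) and −0.71 ± 0.23 for *Cpt1b* (SE; adjusted p = 0.0423). Neither call was held by DESeq2 or without WH8, WH9 or WH10.

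The *Cpt1b* value carries a further limit. Of its exon bases 81.4% lie within *Gm44502*, a read-through gene on the same strand that joins *Chkb* and *Cpt1b*, and 93.0% of its 50-base stretches recur there. *Gm44502* was at 0 counts throughout. How reads that fit both genes were counted is not given in the sources used here, so the level of *Cpt1b* against *Cpt1a* is uncertain. Per kilobase of exon, the *Cpt1a* level was 5.67 and 4.18 times that of *Cpt1b* in Ctrl and 6.69 and 6.46 times in miR-128OE libraries.

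*Cpt2*, which rebuilds the acyl-CoA on the inner side of the membrane, had normalised counts of 777 and 1001 in Ctrl against 1402 and 1368 in miR-128OE hearts. Its log2 fold change was 0.65 ± 0.11 (SE; adjusted p = 0.00281). *Crat*, the carnitine acetyltransferase that buffers acetyl-CoA, had 3228 and 4075 against 4940 and 4803, with a log2 fold change of 0.42 ± 0.11 (SE; adjusted p = 0.0183). Both genes rose, and for both the lower miR-128OE library was above the higher Ctrl library. The *Crat* call was lost without WH9 or WH10 (adjusted p = 0.120 and 0.0731) and when tested against a fold of 1.2 (adjusted p = 0.135), and without WH7 its log2 fold change was 0.26. Of 4 further shuttle genes outside the 34, 1 was higher and 2 were lower, and their median was −0.30 on the log2 scale. The translocase *Slc25a20*, which links CPT1 and CPT2, was the higher one, at 0.49 ± 0.11 (SE; adjusted p = 0.00906), but was not called without WH9 or when scaled to cardiomyocyte markers (0.08). The carnitine importer *Slc22a5* and *Cpt1c*, the CPT1 form of brain, were the lower ones, at −0.34 ± 0.10 (SE; adjusted p = 0.0288) and −0.59 ± 0.17 (SE; adjusted p = 0.0282). Both were named after their values were seen, and DESeq2 called 0 of these 4 further shuttle genes lower.

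**Figure D3:**
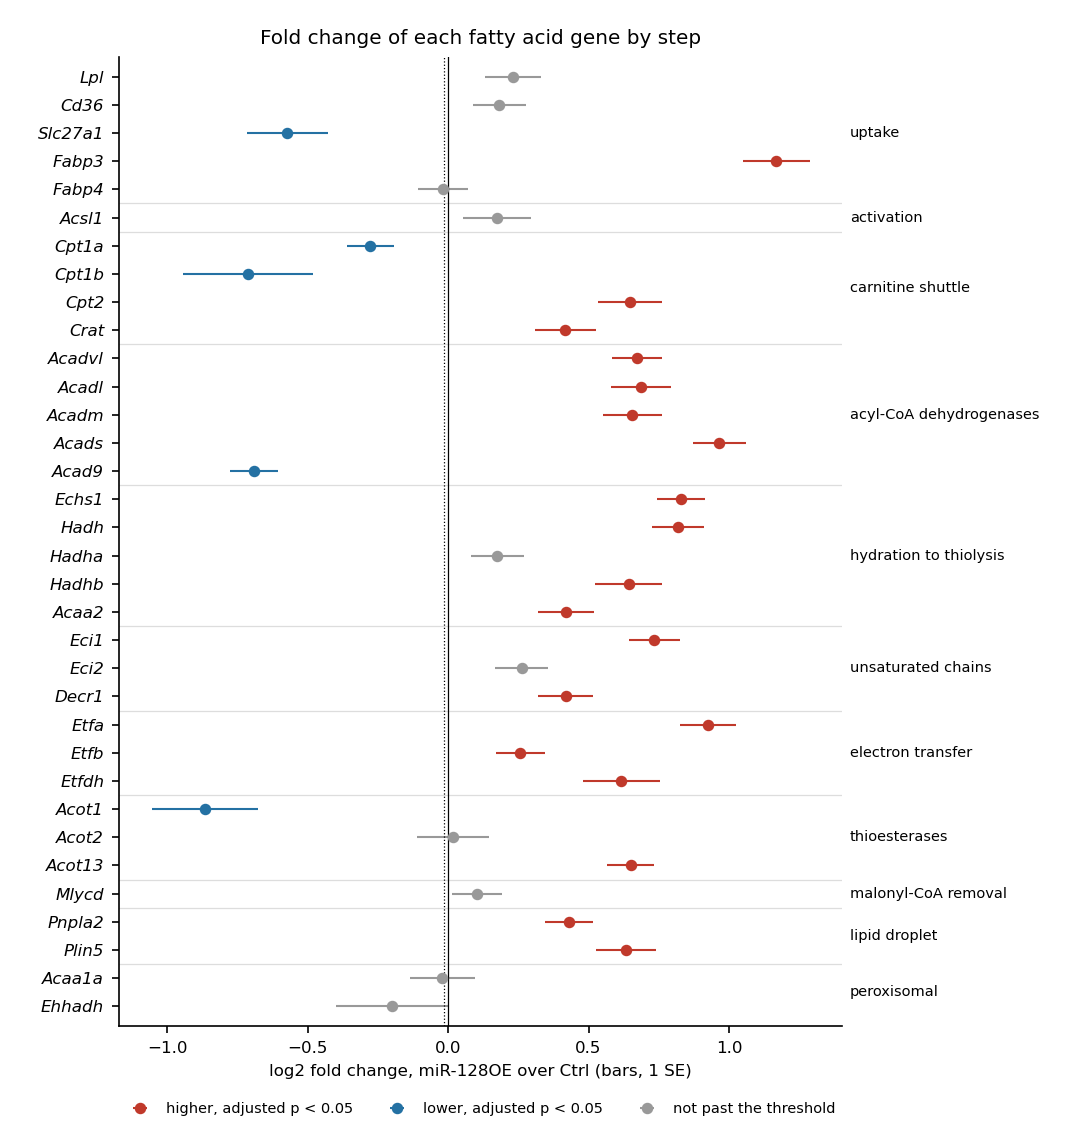
The log2 fold change of each gene, miR-128OE over Ctrl, is plotted with a bar of 1 SE and the step at the right (red, higher; blue, lower; grey, not past the threshold; dotted line, median of all genes tested). The dehydrogenases except Acad9 and the enzymes of hydration to thiolysis lie to the right of 0, and Cpt1a, Cpt1b, Slc27a1, Acot1 and Acad9 to the left.

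The acyl-CoA dehydrogenases, which start each round of beta-oxidation on chains of different length, were higher for 4 of 5 genes. *Acads*, the short-chain enzyme (Entrez Gene 11409, chr5:115110299-115119346), had normalised counts of 760 and 841 in Ctrl against 1653 and 1468 in miR-128OE hearts. Its level was 1.95 times as high, with a log2 fold change of 0.97 ± 0.09 (SE; adjusted p = 0.000164). The long-chain, medium-chain and very long-chain enzymes moved by nearly equal amounts, with log2 fold changes of 0.69 ± 0.11 for *Acadl*, 0.66 ± 0.11 for *Acadm* and 0.67 ± 0.09 for *Acadvl* (all SE). For *Acadvl*, 42.9% of exon bases lie opposite exons of *Dvl2*, which had a log2 fold change of 0.04 ± 0.15 (SE).

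*Acad9* (Entrez Gene 229211, chr3:36065979-36092857) went the other way. It had normalised counts of 891 and 873 in Ctrl against 529 and 564 in miR-128OE hearts. The Ctrl libraries lay close together and well above the others, with a log2 fold change of −0.69 ± 0.09 (SE; adjusted p = 0.000534). Its protein resembles the very long-chain enzyme and is known above all as an assembly factor of respiratory complex I. The 3′UTR match of *Acad9* is shown above with one of the same kind in *Echs1*, which was higher. Whether the match has a part in the fall of *Acad9* was not tested.

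The enzymes from hydration to thiolysis were higher for 4 of 5 genes. *Echs1*, the short-chain enoyl-CoA hydratase (Entrez Gene 93747, chr7:140105710-140116421), had normalised counts of 958 and 995 in Ctrl against 1812 and 1657 in miR-128OE hearts. *Hadh*, the short-chain 3-hydroxyacyl-CoA dehydrogenase, had 1930 and 2093 against 3792 and 3302. Both rose with no overlap between groups, by a log2 fold change of 0.83 ± 0.08 for *Echs1* (SE; adjusted p = 0.000199) and 0.82 ± 0.09 for *Hadh* (SE; adjusted p = 0.000328). The mitochondrial thiolase *Acaa2* rose less, by 0.42 ± 0.10 on the log2 scale (SE; adjusted p = 0.0122), and its call was lost without WH9.

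*Hadha* and *Hadhb* encode the alpha and beta subunits of the mitochondrial trifunctional protein, which carries out these steps on long chains. They are neighbours on chromosome 5, read in opposite directions from start sites with 272 bases between them (RefSeq, GRCm38.p6). *Hadha* had normalised counts of 6390 and 7194 in Ctrl against 7931 and 7403 in miR-128OE hearts. *Hadhb* had 3658 and 4602 against 6914 and 5967. Neither gene had overlapping groups, but *Hadhb* was called higher, with a log2 fold change of 0.64 ± 0.12 (SE; adjusted p = 0.00399), and *Hadha* was not, at 0.18 ± 0.09 (SE; adjusted p = 0.182). These calls depended on single libraries, since *Hadhb* was not called without WH9 (0.55, adjusted p = 0.0517) and *Hadha* was called higher without WH8 (0.27, adjusted p = 0.0212). The difference between the subunits was not tested.

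Auxiliary enzymes handle the double bonds of unsaturated chains, and 2 of 3 were higher. *Eci1*, the main mitochondrial enoyl-CoA isomerase, had normalised counts of 1410 and 1385 in Ctrl against 2495 and 2156 in miR-128OE hearts. *Decr1*, the dienoyl-CoA reductase, had 2107 and 2538 against 3186 and 3012. Both were clear of the Ctrl range, with log2 fold changes of 0.73 ± 0.09 for *Eci1* (SE; adjusted p = 0.000491) and 0.42 ± 0.10 for *Decr1* (SE; adjusted p = 0.0114), the second not called without WH9. *Eci2*, an isomerase of mitochondria and peroxisomes, had 1156 and 1259 against 1549 and 1345 and fell short of the threshold (0.26 ± 0.09, SE; adjusted p = 0.0608).

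Electron transfer from these dehydrogenases to the respiratory chain was higher for 3 of 3 genes. *Etfa*, the alpha subunit of the flavoprotein (Entrez Gene 110842, chr9:55454436-55512243), had normalised counts of 1935 and 2144 in Ctrl against 4179 and 3558 in miR-128OE hearts. *Etfdh*, the oxidoreductase that passes the electrons to ubiquinone, had 1389 and 1935 against 2677 and 2400. Both rose, with log2 fold changes of 0.92 ± 0.10 for *Etfa* (SE; adjusted p = 0.000251) and 0.62 ± 0.14 for *Etfdh* (SE; adjusted p = 0.00884). The *Etfdh* call was lost without WH9, and its log2 fold change was 0.39 without WH7. *Etfb*, the beta subunit, had the smallest change called among the 19 higher genes, at 0.26 ± 0.09 (SE; adjusted p = 0.0482). Of its exon bases 58.2% overlap genes on the same strand (*Gm45233* and *Mir7051*), and its call was lost or turned under 9 of 16 alternatives.

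Thioesterases, which split acyl-CoA back to free fatty acid, were divided. *Acot13*, bound to mitochondria, had normalised counts of 1415 and 1521 in Ctrl against 2383 and 2217 in miR-128OE hearts. *Acot1*, the cytosolic enzyme (Entrez Gene 26897, chr12:84009502-84017670), had 410 and 650 against 299 and 276. *Acot13* rose by 0.65 ± 0.08 (SE; adjusted p = 0.000574) and *Acot1* fell by 0.87 ± 0.19 on the log2 scale (SE; adjusted p = 0.00824), the largest fall among the 34 genes. Without WH10 the call for *Acot1* was lost, and without WH8 its log2 fold change was −0.51.

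*Acot2*, the mitochondrial paralog of *Acot1*, lies beside it (chr12:83987861-83993877). It had normalised counts of 1055 and 1440 in Ctrl against 1261 and 1249 in miR-128OE hearts. Its groups overlapped and its log2 fold change was 0.02 ± 0.13 (SE; adjusted p = 0.939). Per kilobase of exon, the level of *Acot2* was 4.60 and 3.95 times that of *Acot1* in Ctrl and 7.53 and 8.08 times in miR-128OE libraries. Reads could be split between the 2 genes, since 17.6% of the 50-base stretches of *Acot1* recur in *Acot2* and 24.5% of those of *Acot2* in *Acot1*.

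*Mlycd*, the decarboxylase that removes malonyl-CoA, had normalised counts of 812 and 917 in Ctrl against 939 and 915 in miR-128OE hearts, with overlapping groups and a log2 fold change of 0.10 ± 0.09 (SE; adjusted p = 0.408). In contrast, both lipid droplet genes among the 34 rose. *Plin5*, the perilipin that tethers droplets to mitochondria in oxidative tissue, had 358 and 413 against 611 and 580. *Pnpla2* (adipose triglyceride lipase) had 1172 and 1288 against 1709 and 1601. The log2 fold changes were 0.63 ± 0.11 for *Plin5* (SE; adjusted p = 0.00224) and 0.43 ± 0.08 for *Pnpla2* (SE; adjusted p = 0.00504). The *Pnpla2* call was lost without WH9 (adjusted p = 0.0743) and when tested against a fold of 1.2.

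The peroxisomal enzymes were not called in either direction, with 0 of 2 past an unadjusted p of 0.05 and 0 called by DESeq2. *Acaa1a*, a peroxisomal thiolase, had normalised counts of 631 and 530 in Ctrl against 617 and 534 in miR-128OE hearts. *Ehhadh*, the bifunctional enzyme that PPARα is known to induce, had 102 and 89.0 against 88.1 and 79.9. The log2 fold changes were −0.02 ± 0.12 for *Acaa1a* and −0.20 ± 0.20 for *Ehhadh* (both SE), the second at a low count. *Acaa1a* shares 15.6% of its 50-base stretches with *Acaa1b*.

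Summed over all 34 genes, the share of library counts was 1.14% in WH7, 1.29% in WH8, 1.67% in WH9 and 1.56% in WH10. The mean was 1.21% ± 0.108 in Ctrl and 1.61% ± 0.0800 in miR-128OE libraries (SD, n = 2 each), a ratio of 1.33. The groups did not overlap, and a two-sided exact permutation test gave p = 0.333, the smallest value that 2 libraries against 2 can give. Per cardiomyocyte marker count, counts of the 34 genes came to 0.185 and 0.197 in Ctrl against 0.212 and 0.200 in miR-128OE hearts. Both measures lean on *Fabp3*, whose count is in part uncertain. It held 22366 of 141032 counts in WH7 and 18108 of 104519 in WH8. In miR-128OE libraries it held 54422 of 207761 (WH9) and 58932 of 223565 (WH10). The sums were not taken without it, so neither measure by itself shows a rise shared by the other genes.

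**Figure D4:**
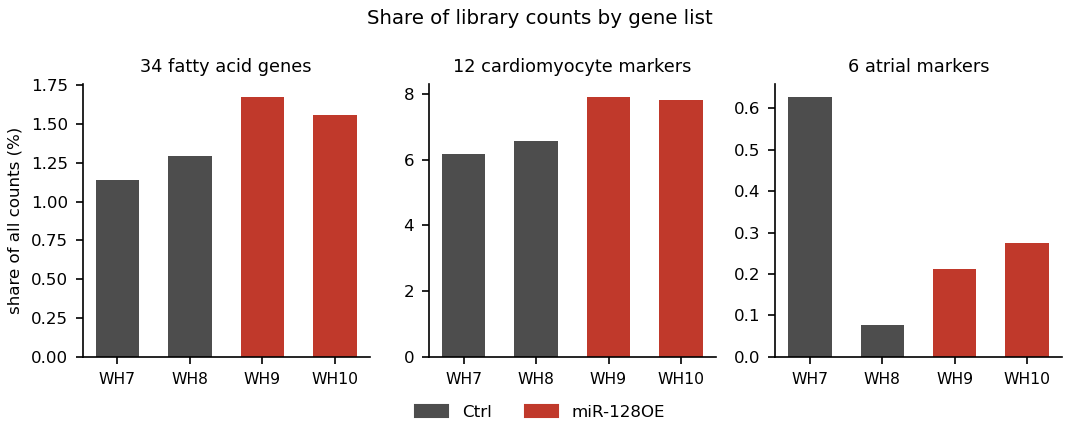
Bars give the share of all counts of each library, in percent, taken by the 34 fatty acid genes, by 12 cardiomyocyte markers and by 6 atrial markers (Ctrl in dark grey, miR-128OE in red). The first 2 lists are higher in both miR-128OE libraries, and the atrial share of 0.626% in WH7 stands above the other 3 libraries.

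Levels were compared between genes only per length, as CPM per kilobase of exon. *Fabp3* was the highest of the 34 genes, at 2109 and 2639 in Ctrl and 5556 and 5111 in miR-128OE libraries, and *Cpt1b* and *Ehhadh* were the lowest, at means of 3.05 and 2.73 in Ctrl. The 2 lowest genes were close to each other, and the *Cpt1b* level is uncertain, since 81.4% of its exon bases lie within *Gm44502*. The place of *Fabp4* depended on the length used: the *Fabp3* level was 6.76 times that of *Fabp4* in Ctrl over all annotated exon bases and 1.35 times over the longest protein-coding transcript, since the exon bases of *Fabp4* include a retained intron.

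The 71 other genes of fatty acid metabolism were counted from a list that does not overlap the 34. Of the 67 tested, 26 were higher and 11 lower, and the median log2 fold change was 0.18. The higher genes with the smallest p-values were *Got2*, a mitochondrial aminotransferase also described as a membrane fatty acid binding protein (1.03 ± 0.09), the uncoupling protein *Ucp2* (0.92 ± 0.09) and the mitochondrial acetyl-CoA synthetase *Acss1* (1.10 ± 0.10; all SE). The lower genes with the smallest p-values were *Angptl4*, a secreted inhibitor of lipoprotein lipase (−0.93 ± 0.10), the dehydrogenase *Acad10* (−1.60 ± 0.22) and the VLDL receptor *Vldlr* (−0.59 ± 0.10; all SE). Without WH9, 10 were higher and 5 lower, and without WH10, 19 were higher and 6 lower, beside the falls over all genes tested given above.

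By role, genes that make malonyl-CoA, the inhibitor of CPT1, were lower for 2 of 2 (1 of 2 by DESeq2). *Acacb*, the carboxylase at the mitochondrial surface, had a log2 fold change of −0.52 ± 0.13 (SE; adjusted p = 0.0127; −0.29 without WH8), and *Acaca*, the cytosolic carboxylase, one of −0.48 ± 0.13 (SE). Among 6 further thioesterases, *Acot3* and *Acot4* were lower, at −1.89 ± 0.31 and −1.87 ± 0.36 (SE), from counts of 41 to 79 in Ctrl and 12 to 33 in miR-128OE libraries, and *Acot9* was higher. *Acaca*, *Acot3*, *Acot4* and *Acot9* were named after their values were seen. Genes for odd chains were higher for 4 of 6 (1 of 6 under the marker scaling), as were other genes of hydration to thiolysis (2 of 6). Of 5 further acyl-CoA dehydrogenases 1 was higher and 1 lower, with a median of 0.10 (0 higher and 3 lower under the marker scaling). Of 11 further lipid droplet genes 4 were higher and 1 lower, with a median of 0.02 (2 higher and 4 lower under the marker scaling). The lower one was the perilipin *Plin3* (−0.27 ± 0.08, SE; named after its value was seen), and DESeq2 called 3 of the 11 higher and 0 lower. Under the marker scaling 3.55% of all genes tested were higher and 48.3% lower. *Pdk4*, the kinase that closes pyruvate dehydrogenase, was higher at 0.61 ± 0.18 (SE; adjusted p = 0.0306; 0.22 and not called under the marker scaling), and *Ucp3*, an uncoupling protein of muscle that follows fatty acid supply, was lower at −0.77 ± 0.20 (SE; adjusted p = 0.0165). Neither *Pdk4* nor *Ucp3* was called by DESeq2 or without WH9, and without 1 Ctrl library the log2 fold change was 0.31 (WH7) or 0.99 (WH8) for *Pdk4* and −0.36 (WH8) for *Ucp3*. The *Acacb* and *Ucp3* calls were also lost without WH10, and that of *Acacb* without WH9.

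Of 15 nuclear receptors and coactivators, 5 were higher and 2 lower, and the median log2 fold change was 0.30. Scaled to cardiomyocyte markers, 2 were higher and 6 lower, with a median of −0.10. At that scaling 3.55% of all genes tested were higher and 48.3% lower, with a median of −0.42. *Ppara* rose by 0.40 ± 0.10 on the log2 scale (SE; adjusted p = 0.0156) and its coactivator *Ppargc1a* by 0.44 ± 0.11 (SE; adjusted p = 0.0149), changes that were −0.01 and 0.04 and not called under the marker scaling. Neither was called without WH9, and *Ppara* was not called without WH10 or by DESeq2. *Perm1*, a muscle regulator induced by PGC-1α and the estrogen-related receptors, rose from normalised counts of 737 and 971 to 2031 and 1875 (adjusted p = 0.000199). The receptor *Esrrb* rose by 2.09 ± 0.23 on the log2 scale, from 40.2 and 60.8 to 235 and 186 (SE; adjusted p = 0.00028). *Esrra* did not pass the threshold (−0.06 ± 0.09, SE; adjusted p = 0.688). The corepressor *Ncor1* fell, at −0.61 ± 0.08, as did the coactivator *Ppargc1b*, at −0.40 ± 0.09 (SE), the second not called without WH9 or WH10.

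Genes of pyruvate entry and the TCA cycle, which receives the acetyl-CoA of beta-oxidation, were higher for 23 of 23, with a median log2 fold change of 0.63 (11 of 23 and 0.23 when scaled to cardiomyocyte markers). *Mdh2*, *Fh1* and *Sdhc*, at 1.22 ± 0.09, 0.93 ± 0.08 and 0.92 ± 0.08 (SE), had the smallest p-values. Glycolysis was higher for 16 of 19 genes tested, while 3 did not pass the threshold, with a median of 0.65 (9 of 19 and 0.24 under the marker scaling). The smallest p-values were those of the glucose transporter *Slc2a4* and of *Pgam1* and *Eno3*, at 0.91 ± 0.08, 0.90 ± 0.08 and 0.91 ± 0.09 (SE), and the largest change was that of *Pgam2*, at 0.95 ± 0.10 (SE). The 34 fatty acid genes, at 0.42, had a lower median than either list and were the only one of the 3 with genes called lower. The difference between the lists was not tested.

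**Figure D5:**
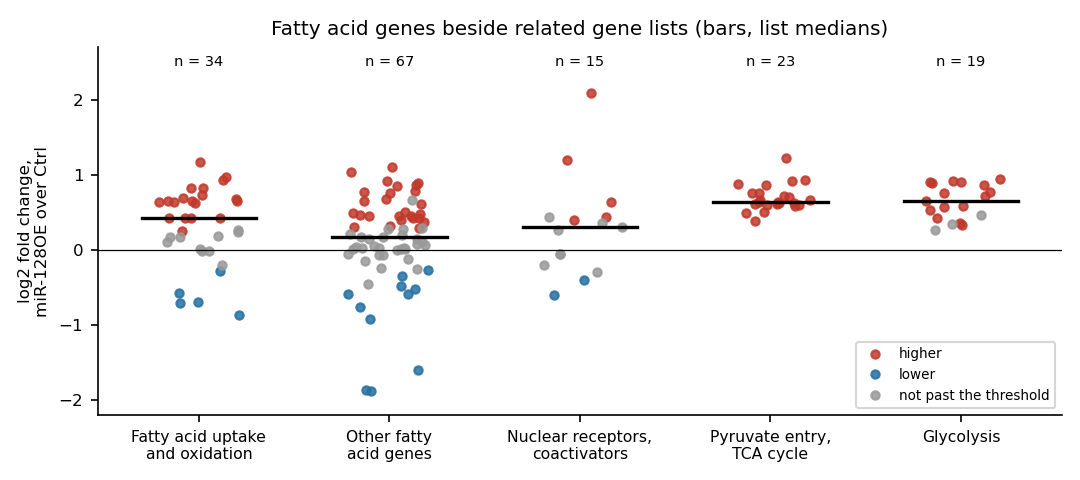
Each point is a tested gene at its log2 fold change, miR-128OE over Ctrl, in 5 lists (red, higher; blue, lower; grey, not past the threshold), with a bar at the list median. The medians are 0.42 for the 34 fatty acid genes, 0.18 for the 67 other fatty acid genes tested, 0.30 for the 15 nuclear receptors and coactivators, 0.63 for the TCA cycle and 0.65 for glycolysis.

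Promoter windows of 250 bases before to 50 after a RefSeq start were held for 26 of the 34 genes (GRCm38.p6) and for 11250 genes tested. The core motif of nuclear receptors, AGGTCA, occurred on either strand in 6 of the 26, or 23.1%, and in 14.8% of the 11250. The longer estrogen-related receptor element TCAAGGTCA, which holds the core motif, occurred in 0 of the 26 and 0.302% of all, and the DR1 element of PPAR and RXR, a direct repeat of the core motif with 1 base between, in 0 of the 26 and 0.0533% of all. With 1 mismatch allowed, both elements were still found in 0 of the 26, and in 6.16% and 0.480% of all. The core motif stood in windows of genes called in both directions and of 1 not called, *Cd36*. It is shown for 2 higher genes and for *Cpt1a*, the lower one, on the strand of the gene with the core motif or its reverse complement in capitals.
*Acadvl* (chr11:70015498-70015527, minus strand): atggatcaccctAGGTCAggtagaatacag
*Echs1* (chr7:140116487-140116516, minus strand): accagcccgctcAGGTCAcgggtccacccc
*Cpt1a* (chr19:3323195-3323224, plus strand): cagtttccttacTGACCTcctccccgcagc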

How the data were processed

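RNA-seq was done by the authors on P7 hearts, 2 Ctrl and 2 miR-128OE libraries. After quality filtering, reads were aligned by the authors to mm10 (TopHat2) and counted on known genes, and the raw counts per Entrez gene were deposited. Gene models, strand and the rule for shared reads are not given in the sources used here, so overlapping genes and near-identical copies are uncertain. The submitters' processing notes also name bcl2fastq and edgeR.

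From these deposited counts, edgeR 4.0.16 (R 4.3.3) was run with filterByExpr defaults (minimum count 10, minimum total 15), TMM factors and the quasi-likelihood test, with Benjamini-Hochberg adjustment over 14266 genes and a threshold of 0.05. The script was tested on simulated data with 200 of 14075 genes changed. Of changes of 0.5, 1 and 2 on the log2 scale, 27.7%, 84.8% and 98.5% were recovered, and 7.95% of calls were false. SE was computed by dividing a log2 fold change by √F. Symbols and coordinates came from RefSeq (GRCm38.p6; 24374 of 24454 identifiers matched) and exons, 3′UTRs and shared 50-base stretches from GENCODE M21 (GRCm38). Totals of 8096870 to 14359838 counts set the precision. The 34 genes and all lists were chosen with earlier results of these data known.

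All 34 genes are named. Values in every library are given for the 2 smallest p-values in each step, for genes lower or not past the threshold and for paralogs. From the other lists the 3 higher and 3 lower genes with the smallest p-values and 8 fixed genes (*Slc25a20*, *Acacb*, *Pdk4*, *Ucp3*, *Angptl4*, *Ppara*, *Ppargc1a*, *Esrra*) are named. Of the other marker lists, fibroblast markers had 1 of 8 higher and took 0.665% to 1.03% of counts, atrial and macrophage markers had 0 called of 6 and 8 by edgeR (0 at an unadjusted p under 0.05 and 0 by DESeq2), and of the red blood cell and hepatocyte markers 1 (*Alas2*) was higher and 1 (*Apoa2*) lower. The 4 hemoglobin genes listed had 0 counts in every library, beside 487, 215, 831 and 899 counts of *Alas2* in WH7 to WH10. The cause of the 0 counts was not tested, and they are not read as absence of blood. Alternatives were other size factors, filters and tests (DESeq2 1.42.0), an offset for GC content and length, autosomal genes alone and each library left out; scaling to cardiomyocyte markers and the protein-coding transcript length were added after the data were seen.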

Additional observations from a re-analysis of the deposited data

How the results depend on the processing

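No paired analysis was possible because the labels give the libraries no replicate numbers. Size factors, filters, the likelihood ratio and exact tests, the GC and length offset and autosomal genes alone kept the counts of higher and lower fatty acid genes within 1.5 times. DESeq2 called 3 of the 34 genes and 6 of the 67 other fatty acid genes lower, where 9.88% of all genes tested were lower. Testing against a fold of 1.2 called 2 of the 34 lower, and 13 higher and 5 lower of the others. At that setting 7.5% of all genes tested were higher and 7.58% lower. Scaled to cardiomyocyte markers, 9 and 10 of the 34 were higher and lower, with a median of 0.0157, and 9 and 25 of the others. Of all genes tested, 3.55% were then higher and 48.3% lower. Leaving out 1 library gave 12 to 25 higher and 1 to 5 lower among the 34, and 10 to 28 higher and 5 to 14 lower among the others, where all genes tested gave 897 to 2654 higher and 667 to 2384 lower. The median of the 34 was then 0.28 to 0.51. That scaling turned the sign of *Lpl* (−0.17), *Cd36* (−0.22), *Acsl1* (−0.23), *Hadha* (−0.23), *Eci2* (−0.14), *Etfb* (−0.15), *Acot2* (−0.38), *Mlycd* (−0.30) and *Ppara* (−0.00536). The GC and length offset turned *Fabp4* (0.0498), *Acot2* (−0.0172) and *Acaa1a* (0.0153), and total counts and upper-quartile factors turned *Acot2* (−0.0829 and −0.0288). Leaving out 1 library gave values on both sides of 0 for *Fabp4* (−0.0587 to 0.0523), *Acsl1* (−0.00938 to 0.379), *Acot2* (−0.198 to 0.254), *Acaa1a* (−0.132 to 0.116) and *Esrra* (−0.144 to 0.0427). The cause of these changes was not tested. With 2 libraries a condition, small changes and genes at low counts, such as *Cpt1b* and *Ehhadh*, are the least certain.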

Other observations

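Within each condition most of the 34 fatty acid genes differed in 1 direction between the libraries. Of the 34, 29 had a higher normalised count in WH8 than in WH7, against 7612 of the 14266 genes tested, with a median log2 difference of 0.16 and the largest, 0.67, for *Acot1*. In the miR-128OE pair 4 of 34 were higher in WH10 than in WH9, against 7130 of the 14266 tested, with a median of −0.12. WH8 is the library with the fewest counts and WH7 the one with the highest share of atrial markers, and their part in this spread was not tested.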
